A study of Mus musculus with 14 samples.

Results

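The genes described are 10 of the 24833 genes in the count table: Tgfb1, Tgfbr1, Tgfbr2, Tgfbr3, Eng, Smad2, Smad3, Smad4, Smad7 and Skil. They were chosen by name as ligand, receptor and Smad genes of the transforming growth factor β (TGF-β) pathway. All 10 were in the table, and all 10 passed the filter on low counts that left 15466 genes for testing. TGF-β is secreted in a latent form and, once released, binds a type II receptor kinase, which activates a type I receptor kinase, and this kinase phosphorylates Smad2 and Smad3. These Smads enter the nucleus with Smad4 and change transcription, while Smad7 and SnoN, the product of Skil, hold the pathway back. In bone marrow, TGF-β is known as a signal that keeps hematopoietic stem cells quiescent.

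RNA was sequenced from SLAM cells, a population enriched for hematopoietic stem cells that was sorted from C57BL/6 bone marrow as LSK cells (no lineage markers, Sca-1 and Kit present) lacking Flk2 and CD48 and carrying CD150. Mice were injected intraperitoneally with 0.5 µg a day of interleukin-1β (IL-1β), a cytokine of inflammation, or with phosphate-buffered saline (PBS). The groups were IL-1β for 1 day (3 libraries), PBS for 1 day (3), IL-1β for 20 days (4) and PBS for 20 days (4). Each library was a biological replicate pooled from the cells of 3 to 5 mice, so that variation between single mice was not measured. The sources used here do not state the age or sex of the mice.

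Library totals ran between 21654896 and 29441947 counts, and values are counts scaled to a common library total (CPM), with TMM factors unless stated. Transcripts of the gate were present in every library, with Kit between 601 and 1680 CPM and Slamf1, which encodes CD150, between 40.4 and 117 CPM of the library total. Of the genes whose products the gate selects against, Ly6g was at 0 in 11 of 14 libraries and Cd48 stayed between 2.81 and 10.03 CPM, whereas Flt3, which encodes Flk2, lay between 39.9 and 145 CPM. The titles place the libraries in 4 naming sets of unstated meaning: 10k (1 IL-1β and 1 PBS library) and E060216 (2 and 2) at 1 day, and at 20 days E061316, with replicates 1 and 2, beside an untagged set, with replicates 3 and 4. Here the 10k libraries are called replicate 3. The fit held a term for the naming set. Transcripts over 5482 bases, relative to those under 2932 bases, stood lowest in PBS 20-day replicate 4, at -0.39 on the log2 scale, and in both 10k libraries, at -0.29 with IL-1β and -0.25 with PBS. The other 11 libraries lay between -0.045 and 0.20. One IL-1β 20-day library, replicate 3, held 2802 CPM of neutrophil markers, against 97.9 to 194 CPM in the other 13.

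Both promoters printed here carry the letters of the Smad binding site and belong to receptor genes whose 20-day IL-1β and PBS libraries did not overlap. Sequences are from RefSeq on GRCm38.p6, 250 bases before to 50 after the transcription start, read 5′ to 3′ on the gene's strand. The capitals mark CAGAC or its reverse complement GTCTG, the core of the Smad-binding element, searched on both strands. The first window is from chr9:116175314-116175613 on the minus strand, and the second from chr2:32646345-32646644 on the plus strand.
Tgfbr2: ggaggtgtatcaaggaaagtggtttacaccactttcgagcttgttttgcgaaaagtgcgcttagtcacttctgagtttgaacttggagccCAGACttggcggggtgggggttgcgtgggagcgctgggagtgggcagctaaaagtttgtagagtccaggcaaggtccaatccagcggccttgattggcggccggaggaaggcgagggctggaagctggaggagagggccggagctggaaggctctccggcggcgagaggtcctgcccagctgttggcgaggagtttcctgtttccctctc
Eng: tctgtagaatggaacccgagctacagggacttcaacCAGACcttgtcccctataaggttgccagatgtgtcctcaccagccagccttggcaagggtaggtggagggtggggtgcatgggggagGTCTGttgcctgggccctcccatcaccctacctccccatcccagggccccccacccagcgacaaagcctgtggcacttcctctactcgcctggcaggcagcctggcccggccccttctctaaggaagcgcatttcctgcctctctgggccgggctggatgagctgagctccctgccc

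The Tgfbr2 window held 1 match, at position -160 from the start, and the Eng window held 2, at -214 and -127. These 5 letters occur in 49.6% of all 32851 promoter windows in the RefSeq table, so a match sets neither gene apart. Neither window held TGANTCA, the AP-1 motif found in 7.81% of windows, or the NF-κB consensus, found in 5.81%. The 5 genes matched outside chromosome 18 were Tgfb1, Tgfbr1, Tgfbr2, Eng and Smad3. Among them the Tgfb1 window held 1 NF-κB consensus match, at -140, and 1 of 2 windows of Tgfbr1 held CAGAC, at -203. The Smad3 window held none of the 3 motifs.

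Every gene of the pathway core was expressed in the unstimulated cells, and its level per length spanned a wide range. Eng, the gene of the co-receptor endoglin, was highest, at 71.9 ± 2.64 CPM per kilobase of exon (SD over the 7 PBS libraries, both durations). Smad4, the partner shared by all receptor-activated Smads, followed at 47.6 ± 3.30, and Tgfb1, the ligand gene, at 35.5 ± 5.65 CPM per kilobase. These upper 3 positions were separate, apart from a single Tgfb1 value of 46.4 in the 10k PBS library, which lay within the Smad4 range of 43.5 to 52.5.

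Smad3 stood at 21.3 ± 2.27 CPM per kilobase, overlapping with the co-receptor gene Tgfbr3 at 16.5 ± 4.75, whose 7 values spanned 9.89 to 23.9. Tgfbr2 had 11.6 ± 2.93 and Smad2 10.03 ± 1.1 CPM per kilobase, and these 2 did not differ beyond their spread. Lower still were Tgfbr1 at 6.68 ± 2.4, Smad7 at 6.61 ± 4.11 and Skil at 2.81 ± 0.83 CPM per kilobase. Among the kinases, the type II receptor gene was thus above the type I receptor gene in mean level per length, with overlapping ranges of 7.75 to 15.9 and 2.12 to 8.87. Of the receptor-activated Smads, Smad3 was above Smad2 in every PBS library, with ranges of 18.9 to 24.3 and 8.0 to 11.03.

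**Figure D1:**
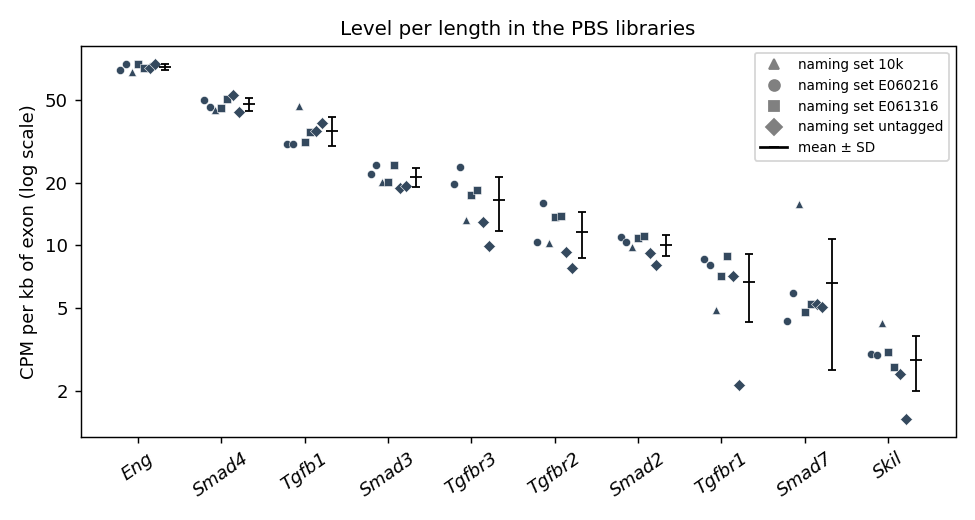
Level of each gene in the 7 PBS libraries, in CPM per kilobase of exon on a log axis, with marker shape for the naming set and a bar for the mean ± SD. Eng is highest at 71.9 ± 2.64 and Skil lowest at 2.81 ± 0.83 CPM per kilobase, and a single PBS library at 2.12 sits apart from the rest for Tgfbr1.

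The 20-day comparison addresses the response to prolonged IL-1β, and 2 receptor genes passed the test in it. Tgfbr3 and Tgfbr2 rose with IL-1β, by 1.85-fold and 1.43-fold. The ligand gene, Smad2, Smad3 and Smad4 did not pass the test. By edgeR's quasi-likelihood test at an adjusted p under 0.05, 2 of the 10 genes rose and 0 fell, beside 7.46% of all tested genes called in either direction, 3.94% called higher and 3.52% called lower. The median log2 fold change over the 10 genes was 0.23, beside -0.00034 over all tested genes.

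Tgfbr3 encodes betaglycan, a co-receptor without kinase activity that presents TGF-β ligands to the type II receptor (ENSMUSG00000029287, GRCm38 chromosome 5, 107106570 to 107289629, minus strand). It had 201, 163, 158 and 172 CPM in IL-1β 20-day libraries, against 114, 120.2, 84.9 and 64.7 CPM in PBS 20-day libraries. Every IL-1β library was above every PBS library, and the nearest values of the groups were 158 and 120.2 CPM. The means were 173 ± 19.4 CPM with IL-1β and 95.9 ± 25.9 CPM with PBS (SD, n = 4 each). The log2 fold change was 0.89 ± 0.13 (SE, edgeR adjusted p = 0.000717), with 0.63 in the E061316 set and 1.15 in the untagged set. Leaving out any 1 of the 14 libraries kept the call, with log2 fold changes between 0.76 and 0.99 and an adjusted p of at most 0.00429. Without IL-1β 20-day replicate 3, the library with neutrophil transcripts, the value was 0.87. Part of its exons, 297 bases, is shared with the predicted gene Gm43422 on the same strand, which is not in the table used here.

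Tgfbr2 encodes the type II receptor kinase that binds the ligand (ENSMUSG00000032440, chromosome 9, 116084293 to 116175360, minus strand). It had 117, 144, 119 and 127 CPM in IL-1β 20-day libraries, against 111, 114, 75.6 and 63.5 CPM in PBS 20-day libraries. The groups did not overlap, but the gap was narrow, between 117 CPM with IL-1β and 114 CPM with PBS, and the lower PBS values were those of the untagged set. Means were 127 ± 11.9 CPM with IL-1β and 91.0 ± 25.3 CPM with PBS (SD, n = 4 each). The log2 fold change was 0.52 ± 0.14 (SE, edgeR adjusted p = 0.0408), with 0.21 in E061316 and 0.83 in the untagged set.

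This call was close to the threshold and ended in 10 of the 14 fits that each left out a library. It held without PBS 1-day replicate 1, PBS 1-day replicate 2, IL-1β 20-day replicate 1 or PBS 20-day replicate 2. The log2 fold change stayed between 0.40 (without PBS 20-day replicate 4) and 0.64 in these fits, with adjusted p between 0.0232 and 0.145. It also ended without the naming set term (adjusted p = 0.209).

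Tgfbr1, the type I receptor kinase gene (ENSMUSG00000007613, chromosome 4, 47353222 to 47414931, plus strand), had 57.8, 57.3, 49.8 and 50.3 CPM in IL-1β 20-day libraries, against 46.6, 57.9, 46.5 and 13.9 CPM in PBS 20-day libraries. The groups overlapped, and PBS replicate 4 was far below the other 7 libraries. Its log2 fold change of 0.43 ± 0.26 did not pass the test (SE, edgeR adjusted p = 0.385) and was 0.12 without that library.

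Eng, whose product is a co-receptor of TGF-β and related ligands best known from endothelium and also found on stem cells (ENSMUSG00000026814, chromosome 2, 32646595 to 32682669, plus strand), had 253, 234, 250.4 and 281 CPM in IL-1β 20-day libraries, against 302, 288, 288 and 301 CPM in PBS 20-day libraries. All 4 IL-1β values were below all 4 PBS values. The difference of -0.21 ± 0.073 on the log2 scale did not pass over all genes (SE, edgeR adjusted p = 0.0974), while DESeq2 called it. Its value was -0.28 in E061316 and -0.15 in the untagged set. Of the Eng exons, 61 bases (1.51%) overlap Fpgs on the opposite strand, and the library chemistry does not mark strand.

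The Smads that carry the signal showed no change past the test at 20 days. Smad3 had 99.5, 94.4, 101 and 121 CPM with IL-1β and 111, 134, 105 and 107 CPM with PBS, and the groups overlapped (log2 fold change -0.13 ± 0.11, edgeR adjusted p = 0.548). Smad2 ranged between 75.3 and 93.3 CPM with IL-1β and between 70.2 and 96.8 CPM with PBS. Smad4 ranged between 169.7 and 184 CPM with IL-1β and between 162 and 195 CPM with PBS. For Smad2 and Smad4 the log2 fold changes were -0.019 ± 0.078 and 0.017 ± 0.078, close to 0 beside their SE. Tgfb1 had 199, 166, 163 and 191 CPM with IL-1β and 158, 177, 178 and 194 CPM with PBS, again overlapping (0.024 ± 0.090, adjusted p = 0.930).

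Both inhibitor genes, which TGF-β itself is known to induce in many cell types, had positive values that did not pass over all genes. Smad7, whose product directs the receptors to degradation (ENSMUSG00000025880, chromosome 18, 75367529 to 75395935, plus strand), had 24.2, 26.6, 37.0 and 42.1 CPM in IL-1β 20-day libraries, against 21.6, 23.6, 23.6 and 22.7 CPM in PBS 20-day libraries. Every IL-1β value was above every PBS value, and the PBS values were tightly grouped. The log2 fold change was 0.47 ± 0.15 (SE, edgeR adjusted p = 0.0697), with 0.17 in E061316 and 0.77 in the untagged set. Skil, whose product is a co-repressor that binds Smads (ENSMUSG00000027660, chromosome 3, 31095058 to 31122577, plus strand), had 27.6, 32.4, 38.1 and 42.3 CPM in IL-1β 20-day libraries, against 29.6, 25.1, 23.3 and 14.2 CPM in PBS 20-day libraries. The groups overlapped at 27.6 CPM with IL-1β and 29.6 CPM with PBS. Its value of 0.61 ± 0.19 (SE, edgeR adjusted p = 0.0687) was 1.14 in the untagged set and 0.13 in E061316, and it was 0.39 without PBS 20-day replicate 4. DESeq2 called 5 of the 10 genes at 20 days, with Tgfbr2, Tgfbr3, Smad7 and Skil higher and Eng lower. Beside this, DESeq2 called 11.7% of all tested genes, 5.96% higher and 5.74% lower. Groups did not overlap for 4 of the 10 genes, namely Tgfbr2, Tgfbr3, Eng and Smad7, beside 10.4% of all tested genes.

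**Figure D2:**
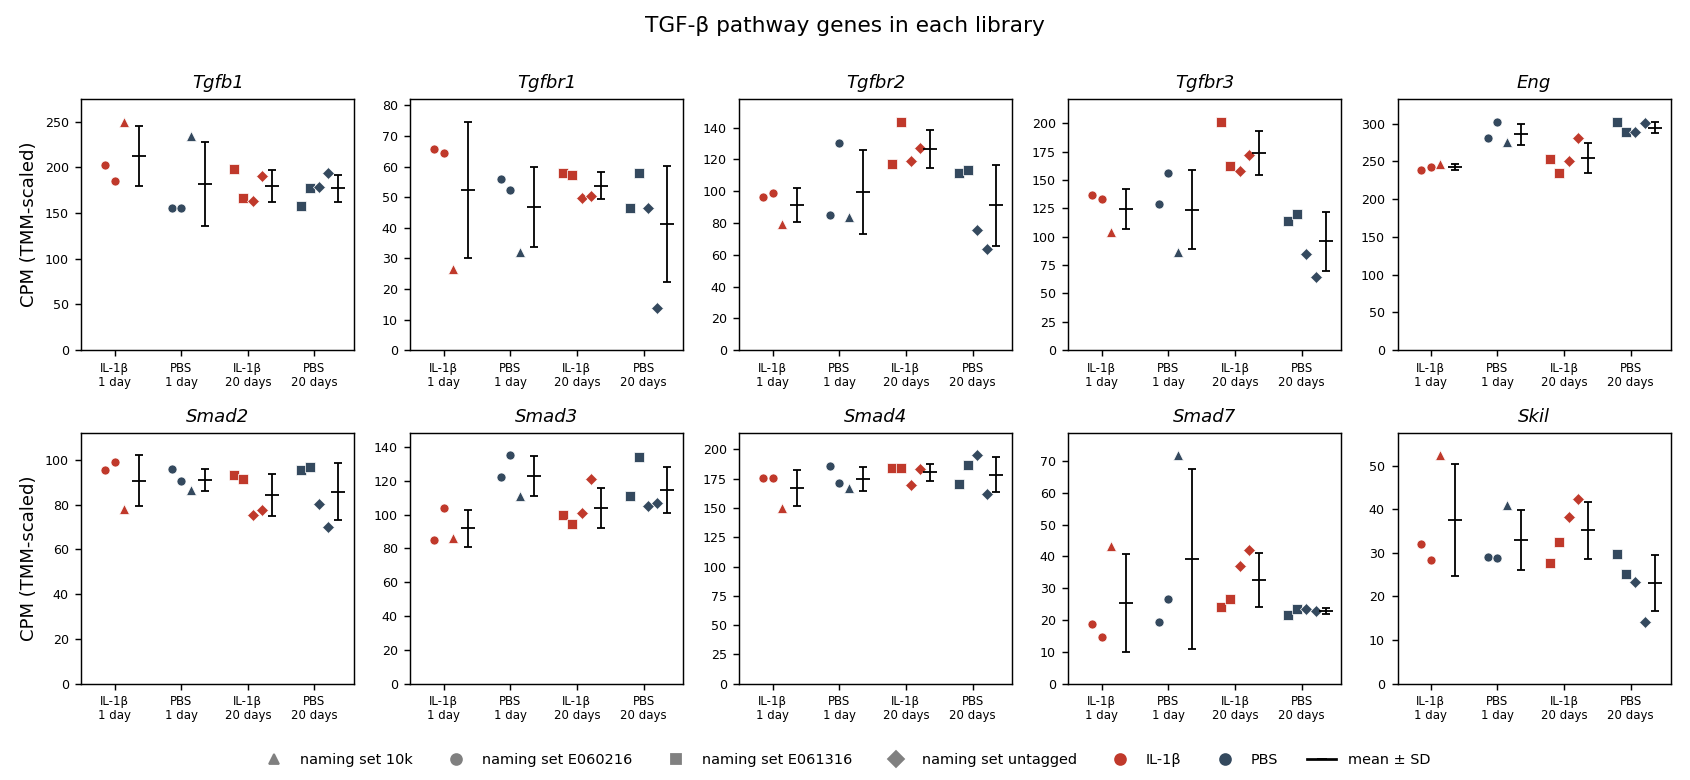
TMM-scaled CPM of each gene in the 14 libraries, IL-1β in red and PBS in dark blue within each duration, marker shape for the naming set, and bars for mean ± SD (n = 3 per group at 1 day and 4 at 20 days). Tgfbr3 lies at 158 to 201 CPM in the IL-1β 20-day libraries, above all PBS 20-day libraries, while for Tgfbr1 a single PBS 20-day library at 13.9 CPM falls away from the rest.

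Several transcripts that mark other cells or the gate moved with these genes at 20 days. Slamf1 rose by 0.81 ± 0.12 on the log2 scale and Pecam1, an endothelial marker that stem cells also express, by 1.17 ± 0.13. Of 8 endothelial markers tested 2 rose and 2 fell, of 11 megakaryocyte markers 5 rose and 1 fell, and Flt3 rose by 1.02 ± 0.15. The whole endothelial list, 10 of 10 in the table, summed to 627 to 765 CPM with IL-1β and 615 to 688 CPM with PBS, and the megakaryocyte list, 11 of 12 in the table, to 1636 to 2291 CPM with IL-1β and 1662 to 1838 CPM with PBS. Both pairs of sums overlapped. The list of genes that the gate selects against, 6 of 8 in the table, summed to 451 to 582 CPM with IL-1β and 250.2 to 375 CPM with PBS, without overlap. Ptprc, at 166 to 382 CPM over all libraries, was a large part of these sums. They are therefore not a measure of cells outside the gate alone. Of the 5 tested, 3 rose, namely Flt3, Cd48 and Itgam, the last averaging 47.9 CPM with IL-1β and 14.3 CPM with PBS. Of the defining endothelial markers, Cdh5 was at 0.255 CPM or less and Stab2 at 0.679 CPM or less in every library, and Ramp2 at 3.94 CPM or less. The other 7 were present in every library, with Kdr at 5.90 to 19.0 CPM, Emcn at 22.1 to 35.2, Robo4 at 37.3 to 106, Pecam1 at 42.4 to 142, Egfl7 at 57.5 to 118, Tek at 66.3 to 148 and Tie1 at 190.1 to 309.9 CPM. Of the other marker lists, at 20 days 1 of 10 stem cell genes rose, which was Slamf1, 2 of 11 neutrophil genes rose, 1 of 10 macrophage genes rose and 2 fell, and 1 of 7 stromal genes rose and 1 fell. The summed neutrophil, macrophage and stromal markers overlapped between the 20-day groups. The part of these transcripts in the changes of Tgfbr2 and Tgfbr3 was not tested. In bulk RNA, a change in the number of cells of a type and a change in RNA per cell cannot be told apart.

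Transcript length bears on the same libraries. The exons of Tgfbr1, Tgfbr2, Tgfbr3 and Skil add up to 6534, 8187, 6545 and 9694 bases, and PBS 20-day replicate 4, lowest in long transcripts as a whole, was lowest of all 14 libraries for each of the 4 genes. Of the 6 genes with more than 5482 exon bases, 5 were lowest there, since Smad2, at 8781 bases, was lowest too. The sixth, Smad3, at 5542 bases, had 107 CPM in that library, above 7 of the other libraries. With the shift of long against short transcripts as a covariate, chosen after seeing the data, Tgfbr3 kept 0.80 (edgeR adjusted p = 5.38e-05), Tgfbr2 had 0.42 (0.0158) and Skil 0.49 (0.0158), all 3 called. Without both 20-day libraries numbered 4, Tgfbr3 was still called at 0.71 (edgeR adjusted p = 0.00431), while Tgfbr2 had 0.35 (0.215) and Skil 0.31 (0.275).

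**Figure D3:**
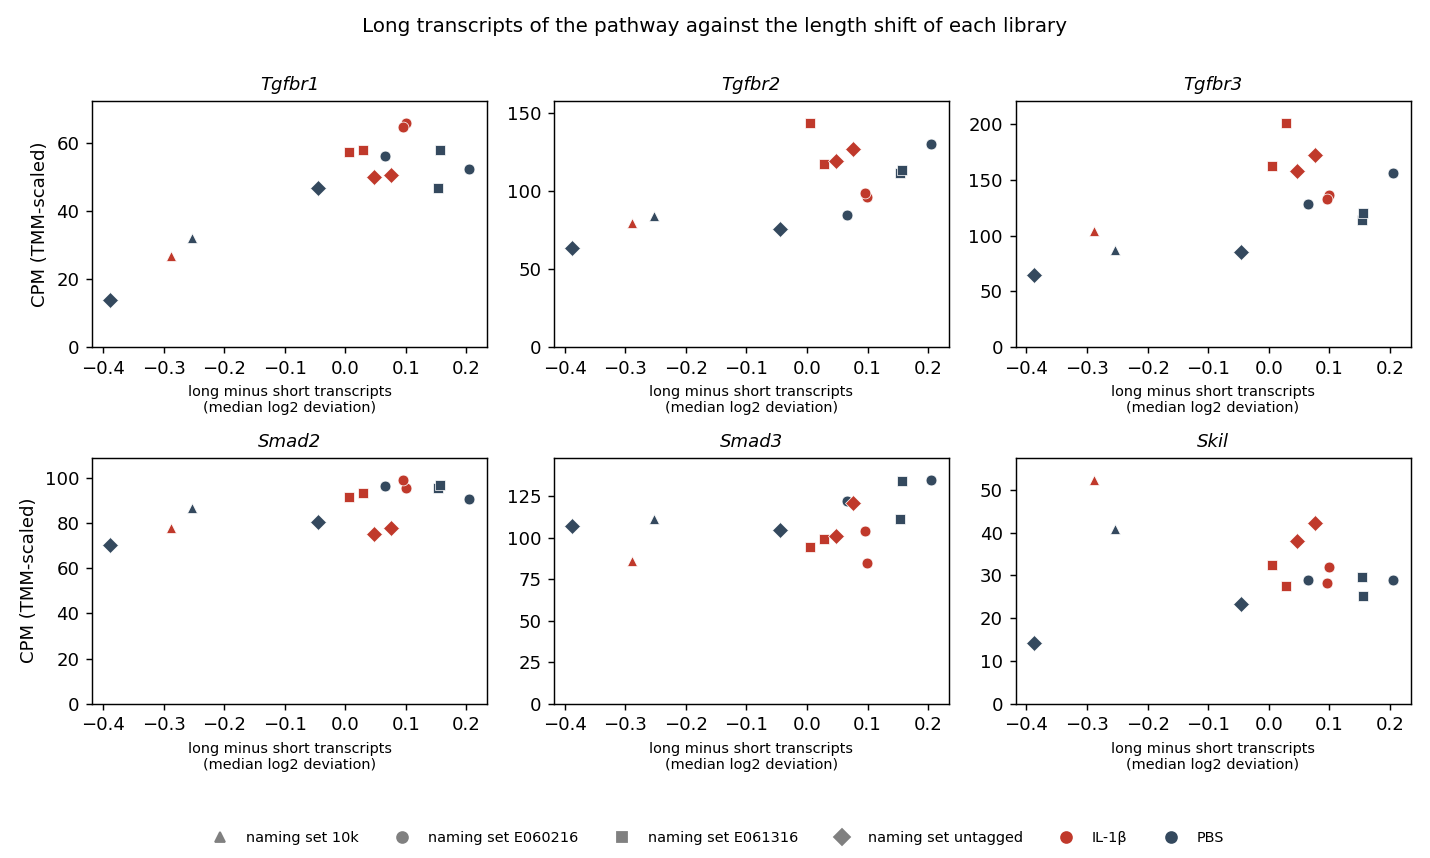
Library values (TMM-scaled CPM) of the 6 genes with exon lengths above 5482 bases against the median log2 deviation of long minus short transcripts in the same library. PBS 20-day replicate 4 is at the far left at -0.39 and lowest in every panel except that of Smad3, where it has 107 CPM, and the 4 IL-1β 20-day libraries lie close together on the horizontal axis, with Tgfbr3 at 158 to 201 CPM.

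For acute IL-1β, the 1-day comparison, no gene of the 10 passed the test over all genes. By edgeR, 0 of 10 were called, beside 4.35% of all tested genes, 2.52% higher and 1.83% lower. At an unadjusted p under 0.05 there were 4, with Tgfb1 higher and Eng, Smad3 and Smad7 lower, beside 18.8% of all tested genes. DESeq2 called 3, which were Eng, Smad3 and Smad7, all lower, beside 9.04% of all tested genes called by DESeq2, 4.25% lower. The median log2 fold change over the 10 genes was -0.040, beside -0.015 over all tested genes. Groups did not overlap for 2 of 10, Eng and Smad3, beside 17.7% of tested genes.

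Smad3 (ENSMUSG00000032402, chromosome 9, 63646767 to 63757994, minus strand) had 84.9, 104 and 86.3 CPM in IL-1β 1-day libraries, against 122, 135 and 111 CPM in PBS 1-day libraries. All 3 IL-1β values were below all 3 PBS values. The log2 fold change was -0.42 ± 0.12 (SE, edgeR adjusted p = 0.0759), with -0.37 in the 10k set and -0.45 in E060216. Eng had 238, 243 and 247 CPM with IL-1β, against 281, 302 and 276 CPM with PBS. These groups were also separate, with an effect of -0.24 ± 0.084 (SE, edgeR adjusted p = 0.133), nearly the size of the 20-day value.

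Smad7 had 18.8, 14.5 and 43.1 CPM with IL-1β, against 19.5, 26.7 and 71.7 CPM with PBS. The 10k libraries held the highest value of each group, so the groups overlapped, while the IL-1β library or libraries were lower on average within each set, with log2 differences of -0.73 in 10k and -0.46 in E060216. The fitted effect was -0.56 ± 0.17 (SE, edgeR adjusted p = 0.0823). Tgfb1 (ENSMUSG00000002603, chromosome 7, 25687002 to 25705077, plus strand) had 202, 185 and 249 CPM with IL-1β, against 155, 155 and 234 CPM with PBS. The ranges overlapped through the 10k PBS library, and the effect was 0.24 ± 0.10 (SE, edgeR adjusted p = 0.218).

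For the kinase receptor genes and Tgfbr3, unlike Eng, the groups overlapped at 1 day. Tgfbr2 had 96.2, 98.8 and 79.2 CPM with IL-1β, against 84.8, 130.1 and 83.7 CPM with PBS. Tgfbr3 had 137, 133 and 104 CPM with IL-1β, against 129, 156 and 86.7 CPM with PBS. Their log2 fold changes were -0.12 ± 0.16 and 0.033 ± 0.15, both within 1 SE of 0, and that of Tgfbr3 was -0.0093 with upper-quartile scaling. For Tgfbr1, the IL-1β libraries had 65.7, 64.6 and 26.6 CPM and the PBS libraries 56.0, 52.4 and 31.9 CPM, with the 10k library lowest in both groups. Skil had 32.0, 28.3 and 52.3 CPM with IL-1β, against 29.0, 28.9 and 40.9 CPM with PBS, and here the 10k library was highest in both groups. Smad2 and Smad4 had log2 fold changes of -0.013 ± 0.090 and -0.066 ± 0.090. At this time the endothelial markers summed to 520 to 523 CPM with IL-1β and 562 to 646 CPM with PBS, and the megakaryocyte markers to 1255 to 1612 CPM with IL-1β and 1638 to 1816 CPM with PBS, both without overlap. Of the markers tested, 1 of 8 endothelial and 2 of 11 megakaryocyte genes fell and 0 rose. Stromal markers (10 of 10 in the table) summed to 44.7 to 54.8 CPM with IL-1β and 60.1 to 77.3 CPM with PBS, and macrophage markers (11 of 11) to 46.0 to 52.6 CPM with IL-1β and 62.9 to 75.9 CPM with PBS. Neutrophil markers (13 of 13) summed to 129 to 153 CPM with IL-1β and 97.9 to 126 CPM with PBS, so these 3 pairs of sums did not overlap either. Of those tested, 2 of 7 stromal and 1 of 10 macrophage genes fell, and 0 of 11 neutrophil genes were called. Most of the neutrophil sum was Prtn3, which averaged 138 TMM-scaled CPM with IL-1β and 107 with PBS. Of the 11 neutrophil genes tested, 3 had positive and 8 negative log2 fold changes (median -0.76), so the higher sum does not describe the list. Sums of the stem cell genes and of the list of genes that the gate selects against, Ptprc included, overlapped at 1 day, with 0 called. The part of these markers in the lower values of Eng, Smad3 and Smad7 was not tested.

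**Figure D4:**
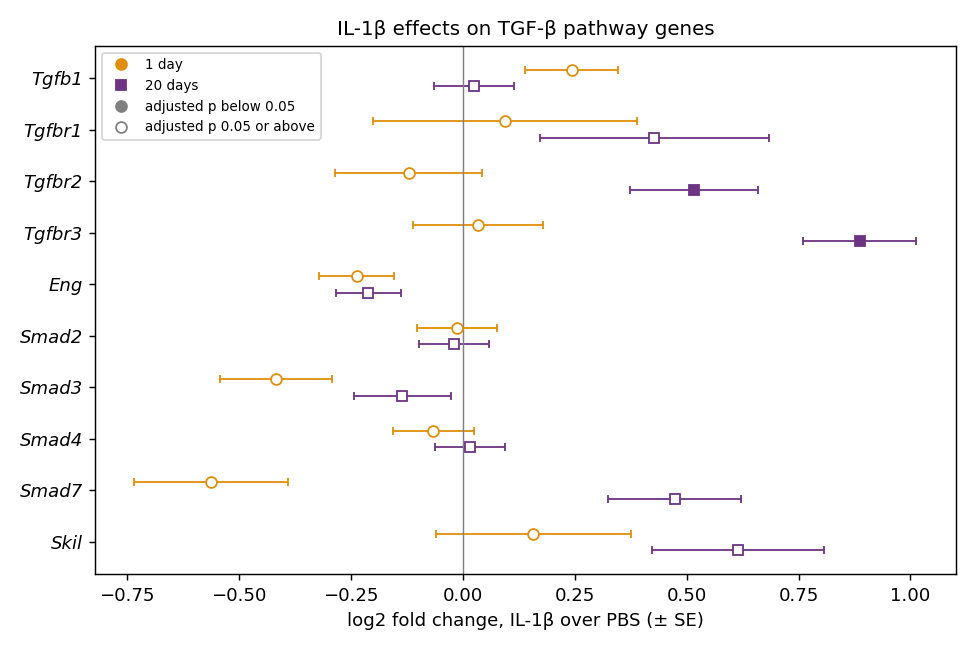
Log2 fold change of IL-1β over PBS (± SE, edgeR) for the 10 genes, circles for 1 day and squares for 20 days, filled where the adjusted p is below 0.05. The filled symbols are Tgfbr2 (0.52) and Tgfbr3 (0.89) at 20 days, and Smad7 has effects on opposite sides of 0, at -0.56 and 0.47, neither of them called.

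Whether the effect of IL-1β differed between the durations was tested as an interaction. Each naming set held libraries of 1 duration only, so here too duration and naming set cannot be told apart. In the order 10k, E060216, E061316 and untagged, the log2 differences were -0.73, -0.46, 0.17 and 0.77 for Smad7. For Tgfbr3 they were 0.26, -0.073, 0.63 and 1.15. Of the 10 genes, 2 had a larger effect at 20 days than at 1 day, Smad7 and Tgfbr3, beside 2.14% of all tested genes with a difference in either direction, 1.15% with a larger and 0.989% with a smaller 20-day effect. For Smad7 the 20-day effect minus the 1-day effect was 1.04 ± 0.23 (SE, edgeR adjusted p = 0.0367), and for Tgfbr3 it was 0.85 ± 0.19 (adjusted p = 0.0397). The Smad7 difference was made of effects with opposite signs, neither of which passed alone, and the Tgfbr3 difference of a 20-day rise beside no detectable 1-day effect. Tgfbr2 had a difference of 0.64 ± 0.22 that did not pass by edgeR (adjusted p = 0.135) and was called by DESeq2 (0.64, adjusted p = 0.0490). DESeq2 called 3 of the 10 differences, those of Smad7, Tgfbr2 and Tgfbr3, beside 7.64% of all tested genes, 3.7% with a larger 20-day effect. The values of the other 7 lay between -0.22 for Tgfb1 and 0.46 for Skil. Both edgeR calls were near the threshold. The Smad7 difference lay between 0.92 and 1.17 when single libraries were left out, and its call ended in 8 of 14 such fits. It held without PBS 1-day replicate 1, IL-1β 20-day replicates 1 or 2, or PBS 20-day replicates 1, 2 or 4. The Tgfbr3 difference lay between 0.72 and 0.96 and its call ended in 9 of 14, holding without either 10k library, IL-1β 20-day replicate 2, or PBS 20-day replicates 2 or 4. Without the naming set term neither was called (edgeR adjusted p = 0.421 and 0.250).

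The PBS groups show how far these genes stood apart between the durations without IL-1β. None of the 10 differed by edgeR between PBS at 20 days and PBS at 1 day, none had an unadjusted p under 0.05, and DESeq2 called none. The PBS groups overlapped for all 10 genes, while 5.9% of tested genes had groups that did not overlap. The same comparison called 0 of 15466 genes by edgeR (0% of those tested), with 676 (4.37%) at an unadjusted p under 0.05 and 10 (0.0647%) by DESeq2. The largest log2 fold change among the 10 was that of Smad7, at -0.78 (0.0014 without both 10k libraries), with 22.9 ± 0.947 CPM in PBS 20-day libraries (n = 4) and 39.3 ± 28.3 CPM in PBS 1-day libraries (n = 3), where the 10k library alone had 71.7 CPM. Duration and naming set cannot be told apart in this comparison.

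A wider list of 132 genes of the pathway, which leaves out the 10 above, had 122 in the table and 104 tested. At 20 days 7 rose and 7 fell, which is 13.5% of the 104, beside 7.46% of all tested genes. At 1 day 3 rose and 6 fell, which is 8.65%, beside 4.35% of all tested genes. The list was chosen with earlier results of these data known, so these shares cannot show an excess for the pathway. The medians were 0.012 at 20 days and -0.11 at 1 day on the log2 scale, beside -0.00034 and -0.015 over all tested genes. Lists below share some genes, and Fn1, Tsc22d1 and Cyr61, with Cdkn1c at 1 day, are named outside the rule for named genes, after their values were seen.

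Genes for release and storage of the ligand fell or did not pass. Of 11 tested, 0 rose and 2 fell at 1 day, and 0 rose and 3 fell at 20 days (medians -0.30 and -0.023). Thbs1, whose product thrombospondin 1 can activate latent TGF-β, averaged 9.99 ± 3.47 CPM with IL-1β and 51.5 ± 31.5 CPM with PBS at 20 days (SD, n = 4 each), a change of -2.34 ± 0.35 (SE, edgeR adjusted p = 0.000999). At 1 day its change was -2.23 ± 0.41 and was called. This 1-day call ended without IL-1β 1-day replicate 1 (edgeR adjusted p = 0.053). It also ended in 1 of 9 alternatives other than single-library leave-out fits. Ltbp3 and Ltbp4 encode latent TGF-β binding proteins, which hold the latent ligand in the matrix. Ltbp4 fell by 0.95 ± 0.15 at 20 days, where the means were 7.57 ± 1.38 CPM with IL-1β and 14.9 ± 4.16 CPM with PBS. It was not called at 1 day, and the difference between the effects was -1.08 ± 0.23 (SE, edgeR adjusted p = 0.0333), called in 6 of 14 leave-out fits. Ltbp3 fell by 0.45 ± 0.12 at 1 day and by 0.39 ± 0.10 at 20 days, and these calls ended in 10 and 5 of 14 leave-out fits.

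Genes of the activin and BMP branches, which share Smad4 with TGF-β, moved in a few members. Among 13 ligand and trap genes, only Inhba, the gene of the activin A subunit, was called, and it fell by 1.83 ± 0.42 at 1 day (0.708 ± 0.281 CPM with IL-1β and 2.45 ± 0.621 CPM with PBS, SD, n = 3 each). This did not hold in 4 of the 14 leave-out fits. Of 10 receptor genes, Acvr1b rose by 0.71 ± 0.16 at 20 days, with 14.1 ± 2.65 CPM with IL-1β and 8.65 ± 2.30 CPM with PBS (SD, n = 4 each). These groups overlapped, and the call ended without IL-1β 20-day replicate 4 and in 1 of 9 alternatives other than single-library leave-out fits. At 1 day the Acvr1b value was 0.62 ± 0.19, not called (edgeR adjusted p = 0.0819), with groups that did not overlap. The difference between its effects was 0.094 ± 0.25. Acvr1b encodes the activin type I receptor ALK4, which phosphorylates the same Smads as the type I receptor of TGF-β. Of 3 BMP-branch Smads tested, Smad1 rose by 0.52 ± 0.080 at 20 days, to 144 ± 4.16 CPM with IL-1β against 100.5 ± 10.3 CPM with PBS (edgeR adjusted p = 0.00119), and no leave-out fit ended this call. Id1, a BMP-Smad target that TGF-β represses in epithelial cells, rose by 0.84 ± 0.21 at 20 days, though its call ended in 6 of 14 leave-out fits.

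Regulators and partners of the Smads were mostly not called. Of 25 regulators tested, 0 were called at 1 day, and 2 rose and 1 fell at 20 days (medians 0.011 and -0.064). Pdcd4, an inhibitor of translation, rose by 0.58 ± 0.10 and Usp11, a deubiquitinase gene, by 0.50 ± 0.12, while Fkbp1a, whose product binds the type I receptor and keeps it inactive without ligand, fell by 0.42 ± 0.10. Among 12 partner genes 1 rose at 1 day, Tfdp1, the gene of an E2F partner, by 0.45 ± 0.10, and 0 were called at 20 days. Of 10 genes of branches that signal without Smads, 1 rose at 20 days, Map2k6, a kinase gene upstream of p38, by 0.64 ± 0.16. Leaving out single libraries ended the calls of Map2k6 in 5 of 14 fits, Tfdp1 in 4, and Usp11 and Fkbp1a in 3 each, and that of Pdcd4 in none.

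Genes widely described as TGF-β targets did not move as a block. Of 26 tested as induced targets, a list that includes Smad7, Skil, Eng and Tgfb1, 2 rose and 5 fell at 1 day, and 1 rose and 4 fell at 20 days (medians -0.23 and 0.062). Tgfbi, the gene of a secreted matrix protein named for its induction by TGF-β, had the largest rise among them, with 99.0 ± 14.3 CPM with IL-1β and 21.4 ± 2.78 CPM with PBS at 20 days (SD, n = 4 each). Its log2 fold changes were 2.21 ± 0.12 at 20 days and 2.07 ± 0.14 at 1 day (SE, edgeR adjusted p = 1.4e-07 and 2.3e-06), with no overlap between the groups at either time. No leave-out fit ended the Tgfbi calls. Fn1, which encodes fibronectin, rose at 1 day by 1.27 ± 0.28, a call that ended in 4 of 14 such fits. The targets that fell at 1 day were Thbs1, Col1a2, Cdkn1c, Tsc22d1 and Ltbp3, and those that fell at 20 days were Thbs1, Cyr61, Cdkn1c and Ltbp3. Cdkn1c encodes p57, an inhibitor of cyclin-dependent kinases linked to stem cell quiescence. It had 32.5 ± 5.72 CPM with IL-1β and 48.5 ± 5.58 CPM with PBS at 20 days, a change of -0.59 ± 0.12. This call held in all 14 leave-out fits and ended in 2 of 9 other alternatives. The 1-day call of Cdkn1c, at -0.54 ± 0.14, ended in 10 of 14 leave-out fits, and those of Tsc22d1 and Col1a2 in 5 and 2. Of 5 genes described as repressed by TGF-β, 0 were called at 1 day, and 1 rose and 1 fell at 20 days. The one that rose was Id1, given above, and Myc fell by 0.42 ± 0.076 at 20 days, with 418 ± 33.7 CPM with IL-1β and 559 ± 20.9 CPM with PBS.

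**Figure D5:**
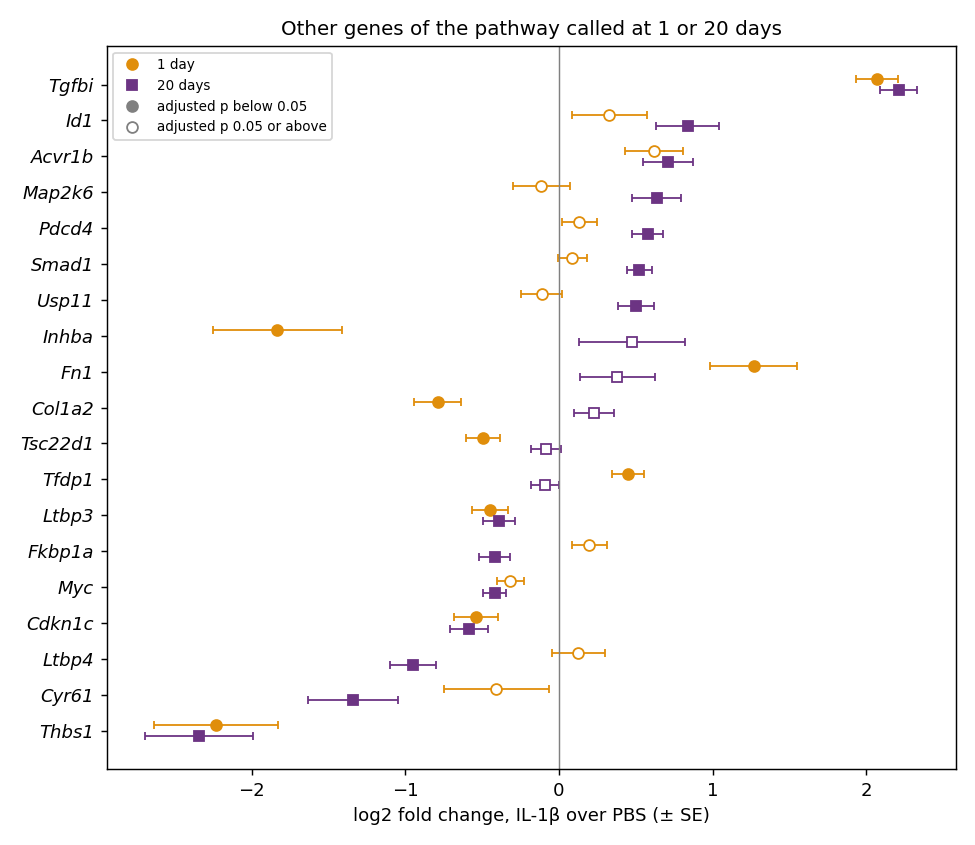
Log2 fold change of IL-1β over PBS (± SE, edgeR) for the other pathway genes called at 1 day (circles) or 20 days (squares), filled where the adjusted p is below 0.05. Tgfbi is highest at 2.07 and 2.21 and Thbs1 lowest at -2.23 and -2.34, and Smad1, Pdcd4, Usp11 and Map2k6 are filled at 20 days with open 1-day symbols near 0.

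The genes most like the called ones in their pattern were found by Pearson correlation of log2 CPM over the 14 libraries among 10245 genes, as a description. The libraries share treatment, naming set and the shift in long transcripts, all of which enter such a likeness. Nearest to Tgfbr3 were B3gnt5 (r = 0.94), Sgpl1 (0.94) and Fut8 (0.93). Nearest to Tgfbr2 were Abcb4 (r = 0.96), Tek (0.93) and Nedd4l (0.92). Nearest to Smad7 were Tnfaip3 (r = 0.96), Fbxo6 (0.93) and Ier3 (0.91). Tek encodes the angiopoietin receptor Tie2 of endothelium and stem cells, Nedd4l a ubiquitin ligase, and Tnfaip3 the NF-κB inhibitor A20.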

How the data were processed

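Per the labels' protocols, cDNA was amplified with SMARTer chemistry for low input, libraries were made with Nextera XT, which does not mark strand, and a HiSeq2500 read single ends. The submitters' processing notes name, without roles, the aligner STAR 2.4.2a and the trimmer Trimmomatic 0.32, along with DESeq2 1.12.3, Cuffdiff, Cufflinks 2.0.2, HTSeq 0.6.1 and build GRCm38.p4. The counting's annotation and strand setting were not given in the sources used here. Raw whole-number counts for 24833 gene symbols were deposited by the authors as a single table.

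These counts went into edgeR 4.0.16 (R 4.3.3, TMM, filterByExpr with a minimum count of 10, robust quasi-likelihood F-test, two-sided), with Benjamini-Hochberg adjustment over the 15466 genes kept and a threshold of 0.05. The fit held naming set and an IL-1β effect per duration (8 residual degrees of freedom, biological coefficient of variation 0.198), and the interaction came from it. For PBS over time, a model of group means was used (10 residual degrees of freedom). SE values are approximate, taken as the size of the log2 fold change over the root of F. The script was tested on simulated counts. Marker sums and marker ranges use library totals. Within-group library pairs differed by more than sampling noise (chi-square per degree of freedom 10.8 to 77.4 over 18 pairs), so all 14 libraries were kept. Coordinates and exon lengths are those of a GENCODE annotation on GRCm38.

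The genes, the lists and the tests were chosen with earlier results of these data known. Named genes are the 10, up to 3 called genes of each list per comparison with the smallest p (or 2 where none was called), and the 3 genes most like each called one with a mean of at least 5 CPM. Not every gene this takes is named. Alternatives were DESeq2 1.42.0, RLE and upper-quartile factors, no filter on low counts, no naming set term, a replicate block, and each library left out. Chosen after seeing the data were fits without both 10k libraries, without both 20-day libraries numbered 4, and with the transcript length shift as a covariate.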

Additional observations from a re-analysis of the deposited data

Results flagged for a closer look

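Effects that differed between the durations, by the interaction test in edgeR, were those of Smad7 (1.04, 20-day effect minus 1-day effect, log2), Tgfbr3 (0.85), Inhba (2.31), Col1a2 (1.02) and Ltbp4 (-1.08). In this test duration cannot be told apart from naming set. Inhba averaged 0.708 CPM with IL-1β and 2.45 CPM with PBS at 1 day, and 2.17 CPM with IL-1β and 1.60 CPM with PBS at 20 days, and its call ended in 10 of 14 leave-out fits. Col1a2, a collagen gene, averaged 15.3 CPM with IL-1β and 26.5 CPM with PBS at 1 day, and 26.0 CPM with IL-1β and 22.2 CPM with PBS at 20 days. The call of its difference ended in 4 of 14 leave-out fits and in 3 of 9 other alternatives.

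A single library stood apart from the others of its group in 4 of 34 sets of values, and chance flags about 1 in 20 groups. Only groups of 4 libraries, those at 20 days, were examined this way, and the 1-day groups were not. Smad4 had 169.7 CPM in IL-1β 20-day replicate 3, below 183 to 184 CPM in the other 3 libraries of that group. The summed neutrophil markers were 2802 CPM in the same library. The list of genes that the gate selects against, of which Ptprc was a large part, summed to 250.2 CPM in PBS 20-day replicate 4, below the other libraries of its group. The summed macrophage markers reached 78.6 CPM in PBS 20-day replicate 1, above a group median of 51.8 CPM.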

How the results depend on the processing

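The rise of Tgfbr3 at 20 days kept its call and direction in every alternative run, with log2 fold changes between 0.71 and 0.99. The other calls, Tgfbr2 at 20 days and the Smad7 and Tgfbr3 differences, were near the threshold. The replicate block ended all 3 (edgeR adjusted p = 0.0688, 0.112 and 0.114). Deviations of same-numbered libraries correlated between -0.030 and 0.27, not all above 0.1, so the numbers were not taken as pairs. IL-1β libraries correlated best with their own number in 2 of 3 cases at 1 day and 3 of 4 at 20 days.

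The number of the 10 genes called at 1 day (0 by the reported fit) was 3 with DESeq2, 2 without both 20-day libraries numbered 4 and 2 with the length covariate. At 20 days (2) it was 5 with DESeq2, 4 with the length covariate, and 1 without the naming set term, with the replicate block, without both 10k libraries, or without both libraries numbered 4. For the difference (2) it was 3 with DESeq2, 0 without the naming set term, with the block or without both libraries numbered 4, and 1 without both 10k libraries. Leaving out single libraries gave 0 to 0, 1 to 3, and 0 to 2 of the 10 in these comparisons, and 0 to 0 between the PBS groups.

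Over all genes, 672 were called at 1 day, 389 higher and 283 lower (344 and 399 with upper-quartile factors). This count was 1398 with DESeq2, 290 without the naming set term, 383 with the block, 1234 without both libraries numbered 4 and 1274 with the length covariate. At 20 days 1154 were called, 1809 with DESeq2, 525 without the term and 672 with the block. The difference was called for 331 genes, 1182 with DESeq2, 23 without the term, 23 with the block and 649 with the covariate. Between PBS groups DESeq2 called 10. Without single libraries the counts ran between 228 (IL-1β 1-day replicate 1 left out) and 1244 (PBS 20-day replicate 4) at 1 day, 648 (IL-1β 20-day replicate 4) and 1156 (PBS 1-day replicate 3) at 20 days, 34 (IL-1β 1-day replicate 1) and 604 (IL-1β 20-day replicate 2) for the difference, and 0 and 0 between PBS groups.

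Signs turned for values that were not called in any fit, of which that of Smad7 between the PBS groups was -0.78 in the reported fit and the others lay between -0.18 and 0.033. Without both 10k libraries, the PBS 20-day over 1-day value of Tgfb1 was 0.21 and of Smad7 0.0014, and the 1-day IL-1β value of Tgfbr3 was -0.079 (-0.0093 with upper-quartile factors) and of Smad2 0.058. Without both libraries numbered 4, the PBS values of Tgfbr1 and Tgfbr2 were 0.10 and 0.0070, the Eng difference -0.023 and the Smad4 20-day value -0.046. The Smad2 difference was 0.00085 with RLE factors, 0.027 with upper-quartile factors and 0.017 with no filter. Without single libraries, signs turned in ranges of -0.048 to 0.088 (Tgfb1 at 20 days), -0.14 to 0.21 (Tgfb1 between PBS groups), -0.39 to 0.099 (Tgfbr1 there), -0.28 to 0.080 (Tgfbr2 at 1 day), -0.25 to 0.11 (Tgfbr2 between PBS groups), -0.078 to 0.15 (Tgfbr3 at 1 day), -0.035 to 0.060 (Eng difference), -0.056 to 0.058 (Smad2 at 1 day), -0.065 to 0.013 (Smad2 at 20 days), -0.091 to 0.036 (Smad2 difference), -0.029 to 0.079 (Smad4 at 20 days), -0.014 to 0.077 (Smad4 between PBS groups) and -1.10 to 0.00087 (Smad7 between PBS groups). The causes were not tested.

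With 3 or 4 libraries a group, effects the size of those of Eng, Smad3, Smad7 and Skil fell on either side of the threshold with the tool used. The SE and SD values come from spread between libraries as well as counting error. Amplified reads carry no molecular identifiers.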
